A study of Drosophila melanogaster with 21 samples.

Results

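Alternative first exons were examined in Drosophila melanogaster S2 cells that made the splicing factor LS2, a mutant of LS2, or GFP. A first 5′ splice site is the end of a transcript's first exon, where its first intron begins, and a gene was included when the BDGP6 annotation gives its spliced transcripts 2 or more such sites. Of 11648 genes with a spliced transcript, 3375 had 2 or more first 5′ splice sites. The 2295 of these whose spliced transcripts summed to at least 1 TPM in all 21 libraries are the genes described here. TPM is an abundance per unit of transcript length, brought to the same sum in each library. The share of a site is the summed TPM of its transcripts, as a percentage of the gene's spliced TPM. In 390 of the 2295 genes only 1 site held a mean share of 2% or more, so no choice could be tested. The gene nearest below the minimum was SmydA-7, at 0.9999 TPM in its lowest library, and the gene nearest above it was eIF4E6, at 1.01 TPM. The other 1905 genes, with 4948 sites, are called start-site genes below, and their sites are numbered from the most upstream one.

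A gene with several promoters can give each its own first exon, which is then spliced to a shared body, so that the choice of start sets the 5′ untranslated region and sometimes the first residues of the protein. A single promoter can also end its first exon at more than one 5′ splice site. LS2 arose in flies as a copy of the large subunit of U2AF, the factor that recognises the 3′ end of introns. A change of start and a change of splicing are therefore separate kinds of event, and start-site genes were set beside internal choices, which are 5′ splice sites joined to 2 or more alternative 3′ splice sites.

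There were 7 groups of 3 libraries, all from S2 cells, a haemocyte-like embryonic line, in which the construct was integrated and selected with hygromycin. Copper sulfate at 500 µM was given to every group for 53 h, GFP cells included. The WT group made wild-type LS2. In d38 cells LS2 carried W62A, D63A and I64A, and in RRM2 cells it carried F285D and F287D. The Beta5 form carried K192E and R194E, and the SF1 form carried E370K and D371K. In the GSlinker form the stretch from H197 to P233 was exchanged for GGS motifs. GFP cells received GFP and no LS2 construct. The labels do not say whether the 3 libraries of a group came from separate cultures or integrations, so p-values measure the spread between these libraries, which may be technical.

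Estimated counts per library summed to between 17667236 and 38553848. LS2 stood at 1.46 to 3.97 TPM in the GFP libraries and at 5175 to 8216 TPM in the other 18. These totals separate GFP from the LS2 constructs and cannot tell wild-type LS2 from its mutants, which were not checked here. Of 8 markers of S2 cells, 7 were present and NimC1 did not pass 0.192 TPM; in WT, 5 of the 7 were lower than in GFP and 0 higher, where 17.1% of all 8750 genes tested were lower and 17.1% higher. Of 7 markers of other cell types, vas was not matched, and 5 of the 6 matched could be tested. Of these 5, 4 were lower in WT than in GFP and 1 was higher. The 6 matched genes summed to between 8.14 and 68.9 TPM per library, and Act88F and lz were near 0. PPO1 and PPO2, prophenoloxidases of crystal cells, averaged 1.54 ± 0.153 and 3.20 ± 0.291 TPM in WT and 31.8 ± 1.17 and 29.6 ± 2.24 TPM in GFP (SD, n = 3 each). The SD of the difference between a transcript's length and its effective length was 278 to 379 nt in the Beta5, GSlinker and SF1 libraries, against 68.5 to 88.7 nt in the libraries of WT, d38, RRM2 and GFP. Every comparison that sets Beta5, GSlinker or SF1 beside WT or GFP crosses that line, where the mutation and this difference between libraries cannot be told apart. The part of the marker differences in the results below was not tested.

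The first exons fell into distinct kinds. For each start-site gene the 2 sites with the highest mean share over all libraries were taken as its pair, without regard to group. That pair had separate first exons in 1202 genes (63.1%). It overlapped and had at least 1 annotated start in common in 620 genes (32.5%), and it overlapped with different starts in 83 genes (4.36%). In those 620 genes the pair is a choice of 5′ splice site at the common start. Other transcripts of either site may begin elsewhere, so a change of start is not excluded there. The sites of the pair led to the same start codon in 1336 genes and to different start codons in 568 genes. Separate first exons began a median of 1346 nt apart, with quartiles of 483 and 4787 nt. The most used site held a median of 77.6% of the gene's spliced TPM over all libraries, and in 502 genes it held more than 90%.

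A smaller percentage of start-site genes than of internal choices differed between WT and GFP. In this comparison 354 of 1905 start-site genes (18.6%) and 506 of 2114 internal choices (23.9%) passed an adjusted p of 0.05, as did 21.4% of all choices together. The difference between the classes was not tested. Of the genes whose pair had separate first exons, 19.0% of 1202 were called, and of those whose pair shared a start, 18.4% of 620. The largest change of share in a called gene had a median of 10.5 percentage points for start-site genes and 11.1 for internal choices. Over all tested, called or not, the order was reversed, with medians of 4.92 points for start-site genes and 4.37 for internal choices. In 187 called start-site genes the change was over 10 points, and in 11 it was over 30. The estimated counts behind a start-site gene had a median of 2131, against 2119 behind an internal choice. The order of the 2 classes was the same under all 15 settings tried. When only the 6 libraries of WT and GFP were fitted, 151 start-site genes and 303 internal choices passed.

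The classes stood in the opposite order in Beta5, GSlinker and SF1, and by less in d38. Of the start-site genes, 776 (40.7%) were called between Beta5 and GFP, 962 (50.5%) between GSlinker and GFP, and 835 (43.8%) between SF1 and GFP. Internal choices were called in 622 (29.4%), 840 (39.7%) and 733 (34.7%) cases in the same comparisons, and all choices together in 34.8%, 44.8% and 39%. The start-site percentage was the higher one under all 14 settings tried in each. Between d38 and GFP 286 start-site genes (15%) and 282 internal choices (13.3%) were called, and between RRM2 and GFP 287 (15.1%) and 310 (14.7%). Over all choices the percentage was 14.1% for d38 and 14.9% for RRM2. Here the classes lay close together. Start-site genes were higher in 14 of 15 settings for d38, while for RRM2 the order changed with the setting, with start-site genes higher in 8 of 15. These 6 comparisons share the GFP libraries.

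**Figure D1:**
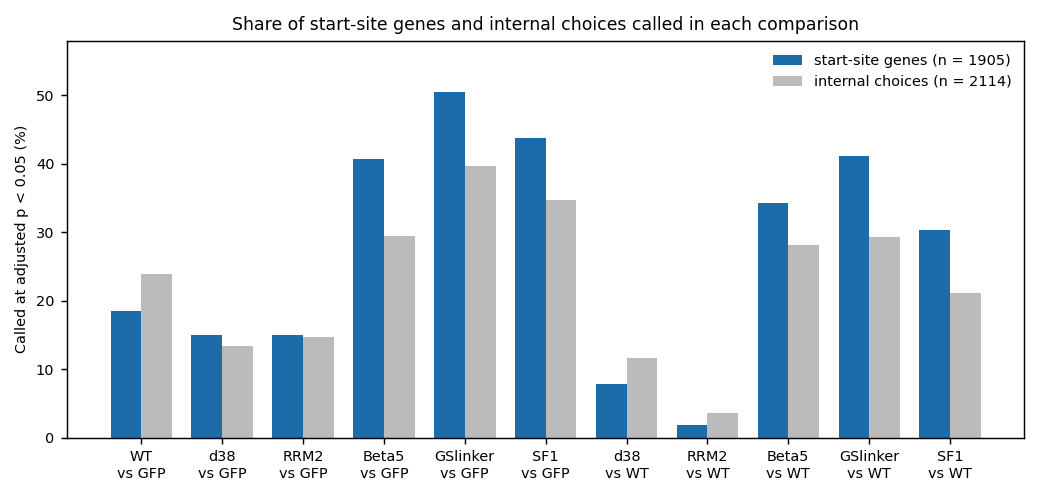
The bars give the percentage of tested start-site genes (blue, n = 1905) and internal choices (grey, n = 2114) that passed an adjusted p of 0.05 in each of 11 comparisons. The start-site bar is the lower one between WT and GFP (18.6% against 23.9%) and the higher one in all 6 comparisons of Beta5, GSlinker or SF1.

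Against WT itself, d38 and RRM2 differed in few start-site genes. Between d38 and WT 150 start-site genes (7.87%) and 247 internal choices (11.7%) were called, and between RRM2 and WT 35 (1.84%) and 75 (3.55%). Over all choices the percentage was 9.88% for d38 and 2.74% for RRM2. In both comparisons the start-site percentage was the lower one under all 15 settings. The counts were sensitive to single libraries. Without any 1 of d38 replicates 1, 2 and 3 or WT replicate 3, 94, 86, 74 and 73 start-site genes were called between d38 and WT. Without any 1 of RRM2 replicates 1, 2 and 3 or WT replicates 2 and 3, 18, 17, 13, 12 and 16 were called between RRM2 and WT. Against GFP, the d38 count dropped to 174, 173 and 167 without d38 replicate 2, d38 replicate 3 or GFP replicate 1. The RRM2 count dropped to 190, 170 and 178 without RRM2 replicate 2, RRM2 replicate 3 or GFP replicate 1. Between Beta5 and WT 654 start-site genes (34.3%) were called, between GSlinker and WT 783 (41.1%), and between SF1 and WT 577 (30.3%), the last falling to 381 without SF1 replicate 3 and 343 without WT replicate 3. Internal choices against WT were called in 595 cases in Beta5 (28.1%), 619 in GSlinker (29.3%) and 447 in SF1 (21.1%), and all choices together in 31.1% for Beta5, 34.9% for GSlinker and 25.5% for SF1.

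Among the genes with the largest change between WT and GFP, several turned to a different start far along the chromosome or to a first exon that GFP cells scarcely used. The 10 genes with the largest change of share, with groups that did not overlap and a mean of at least 200 estimated counts, were AGO3, siz, CLIP-190, RpL17, foxo, Spn77Ba, eIF2Bdelta, spen, CG30460 and Fem-1. The p-values given with them are limma's, combined per gene over its sites and adjusted over all choices of the comparison. A change on the log2 scale is that of the odds of the share.

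The gene siz encodes an exchange factor for Arf GTPases that acts in myoblast fusion. Its site 1 lies in the first exon chr3L:21034535-21035301 (plus strand), and its site 3 ends the first exon chr3L:21058832-21059071, 24297 nt downstream, with a different start codon. Site 3 held 38.6%, 35.2% and 32.7% of the spliced TPM in the WT libraries, against 1.92%, 3.30% and 0.375% in the GFP libraries. The groups were far apart, since the lowest WT library stood well above the highest GFP library. Site 1 averaged 59.5% ± 4.60 in WT and 97.2% ± 2.28 in GFP (SD, n = 3 each), a log2 change of -4.37 ± 0.40 (SE, adjusted p = 5.2e-07). In TPM, the downstream start gave 5.09 in WT and 0.213 in GFP, while the upstream start gave 8.41 in WT and 11.0 in GFP. Every LS2 form shifted siz away from site 1, at a mean of 77.7% (d38), 79.6% (RRM2), 75.9% (Beta5), 57.8% (GSlinker) and 41.6% (SF1), with adjusted p between 3.07e-08 and 4.04e-05 against GFP.

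The gene spen encodes a large RNA-binding protein that works with transcriptional corepressors. Its site 1 ends the first exon chr2L:159032-159819 (plus strand) and its site 3 the first exon chr2L:182820-182913, 23788 nt downstream, again with a different start codon. Here WT turned to the upstream start. Site 3 held 0.409%, 0.00616% and 3.45e-05% in the WT libraries, against 16.4%, 28.6% and 39.8% in the GFP libraries. Site 1 averaged 94.9% ± 1.45 in WT and 63.8% ± 12.3 in GFP (SD, n = 3 each), a log2 change of 3.16 ± 0.39 (SE, adjusted p = 5.98e-06). RRM2 kept part of site 3, at 19.1%, 21.8% and 5.97%, and it was the single LS2 form whose spen shares did not pass against GFP (adjusted p = 0.179). RRM2 differed from WT in this gene (adjusted p = 0.000671).

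The gene foxo encodes the forkhead factor downstream of insulin signalling. Its site 3 ends the first exon chr3R:14057919-14058107 (plus strand), 974 nt downstream of site 1, whose first exon is chr3R:14056945-14057024, and both sites lead to the same start codon. Site 3 held 34.2%, 37.7% and 30.2% in the WT libraries, against 0.093%, 0% and 0.000178% in the GFP libraries. It amounted to 6.21 TPM in WT and 0.00375 TPM in GFP, while site 1 gave 10.4 TPM in WT and 10.8 TPM in GFP (adjusted p = 0.000113). The use of site 3 was close to 0 in most other libraries. It was listed at 0% in all 3 d38 libraries and stood below 1e-06% in those of Beta5 and GSlinker, at up to 1.22% in RRM2, and at 4.61e-06%, 17.3% and 0.370% in SF1. All 5 mutants differed from WT in foxo, with adjusted p between 3.95e-05 and 0.00178.

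CLIP-190 encodes a protein that binds the growing ends of microtubules. Its site 4 ends the first exon chr2L:17389341-17389530 (plus strand), 4641 nt downstream of the first exon chr2L:17384700-17385495 of site 2, with a different start codon. Site 4 held 67.3%, 60.9% and 70.3% in the WT libraries, against 34.5%, 37.4% and 15.6% in the GFP libraries. The groups did not overlap, and the log2 change was 2.29 ± 0.34 (SE, adjusted p = 0.000438). Site 4 gave 20.7 TPM in WT and 5.25 TPM in GFP, whereas site 2 gave 9.71 TPM in WT and 9.66 TPM in GFP. The 5 mutants averaged between 51.4% and 62.0% at site 4, and each passed against GFP with an adjusted p of at most 0.0106.

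**Figure D2:**
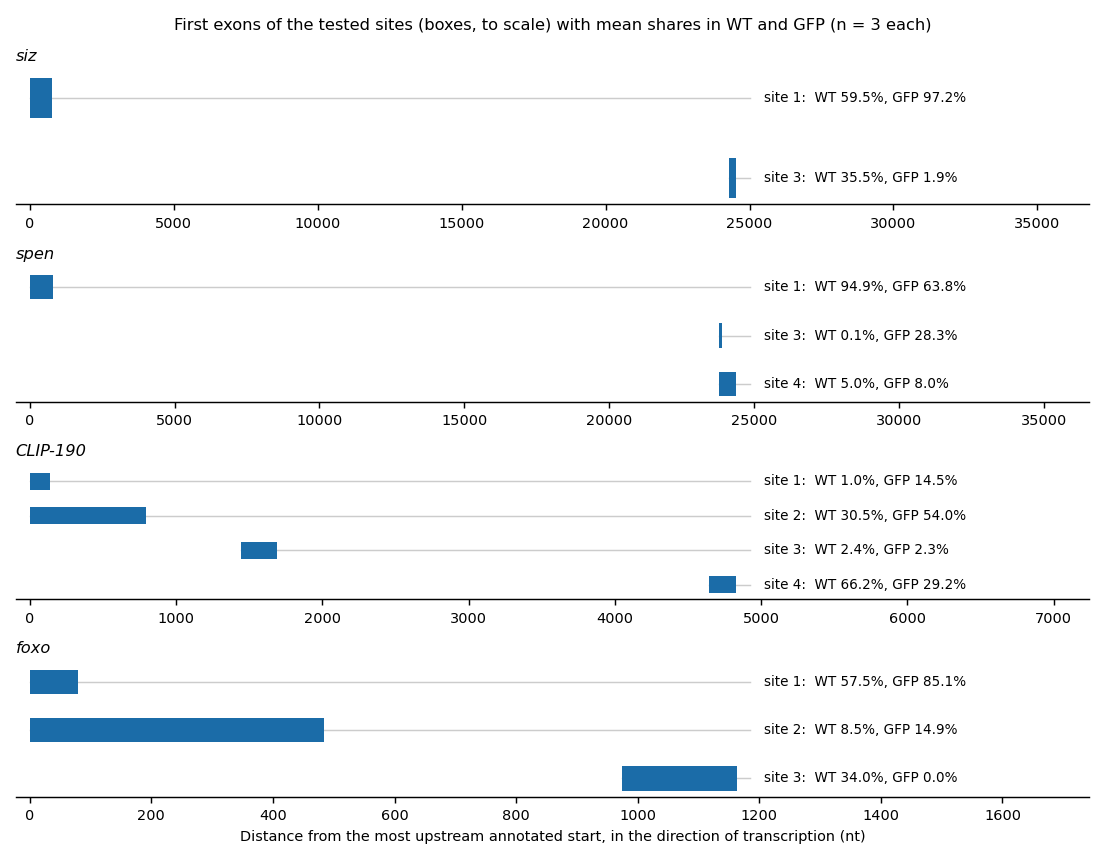
First exons of the tested sites of siz, spen, CLIP-190 and foxo are drawn to scale as boxes on the distance from the most upstream annotated start in nt, 1 row per site, with a thin line that only leads to the mean share in WT and GFP (n = 3 each). The sites that WT took up lie downstream in siz, CLIP-190 and foxo and upstream in spen.

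Shorter distances separated the starts of the other named genes. Fem-1, named for a worm gene whose product is a substrate receptor of a ubiquitin ligase, used its downstream site 2 (chr2R:20665545-20665639, minus strand) for 41.1%, 42.3% and 41.7% in the WT libraries, against 17.1%, 8.67% and 10.2% in the GFP libraries (adjusted p = 0.000434). The 3 WT libraries lay close together and above every GFP library. The translation factor gene eIF2Bdelta, part of the exchange factor for eIF2, used its upstream site 1 (chr2R:23386521-23386622, plus strand) for 68.2%, 64.5% and 72.9% in WT, against 34.9%, 31.7% and 42.2% in GFP (adjusted p = 0.00527). Its site 2 begins 383 nt downstream. The total of the gene was not called (log2 fold change 0.03, adjusted p = 0.811). RpL17, of the large ribosomal subunit, used site 5 (chrX:6743058-6743167, minus strand) for 30.8%, 34.3% and 28.6% in WT, against 78.5%, 57.3% and 62.6% in GFP (adjusted p = 0.000234). Its transcripts from site 1, which begins 1071 nt upstream, made up 1579 TPM in WT and 744 TPM in GFP.

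HINT1, a histidine triad protein gene, was put on a fixed list with earlier results of these data known. It used site 1 (chr2L:2770135-2770191, plus strand) for 83.8%, 83.2% and 83.2% in WT, against 55.1%, 62.0% and 61.9% in GFP (adjusted p = 0.00057). Its site 2 begins 59 nt downstream and gives another start codon. The WT libraries all stood above the GFP libraries. RRM2, Beta5, SF1 and GSlinker stood above GFP in HINT1 as well, at means of 81.4% to 84.8%, while d38 averaged 69.6% ± 1.54 (SD, n = 3), which did not pass against GFP (adjusted p = 0.184) and did pass against WT (adjusted p = 0.0275).

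The remaining genes of this group of 10 rested on less. CG30460 used site 4 (chr2R:17072530-17073052, minus strand) for 12.5%, 24.5% and 21.9% in WT, against 61.9%, 60.5% and 28.6% in GFP (adjusted p = 0.00243), and its total was higher in WT by 2.08 on the log2 scale (adjusted p = 4.27e-12). The serpin gene Spn77Ba shares 1 start between its sites, and the shorter first exon (chr3L:20317190-20317416, plus strand) held 81.3%, 89.5% and 66.4% in WT, against 39.5%, 41.1% and 56.1% in GFP (adjusted p = 0.0126). That call was lost without WT replicate 2 (adjusted p = 0.0673), without GFP replicate 1 (adjusted p = 0.0515) and in the fit of 6 libraries (adjusted p = 0.0609). AGO3, an Argonaute protein of the piRNA pathway, used site 1 for 0.000736%, 76.7% and 0.00724% in WT, against 100%, 88.2% and 79.8% in GFP (adjusted p = 0.0188). WT replicate 2 lay close to GFP. The call was lost in the fit of 6 libraries (adjusted p = 0.167), in the fit of the 12 libraries of WT, d38, RRM2 and GFP (adjusted p = 0.0629) and without any 1 of WT replicates 1 and 3 and GFP replicate 1 (adjusted p = 0.102, 0.0816 and 0.111).

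**Figure D3:**
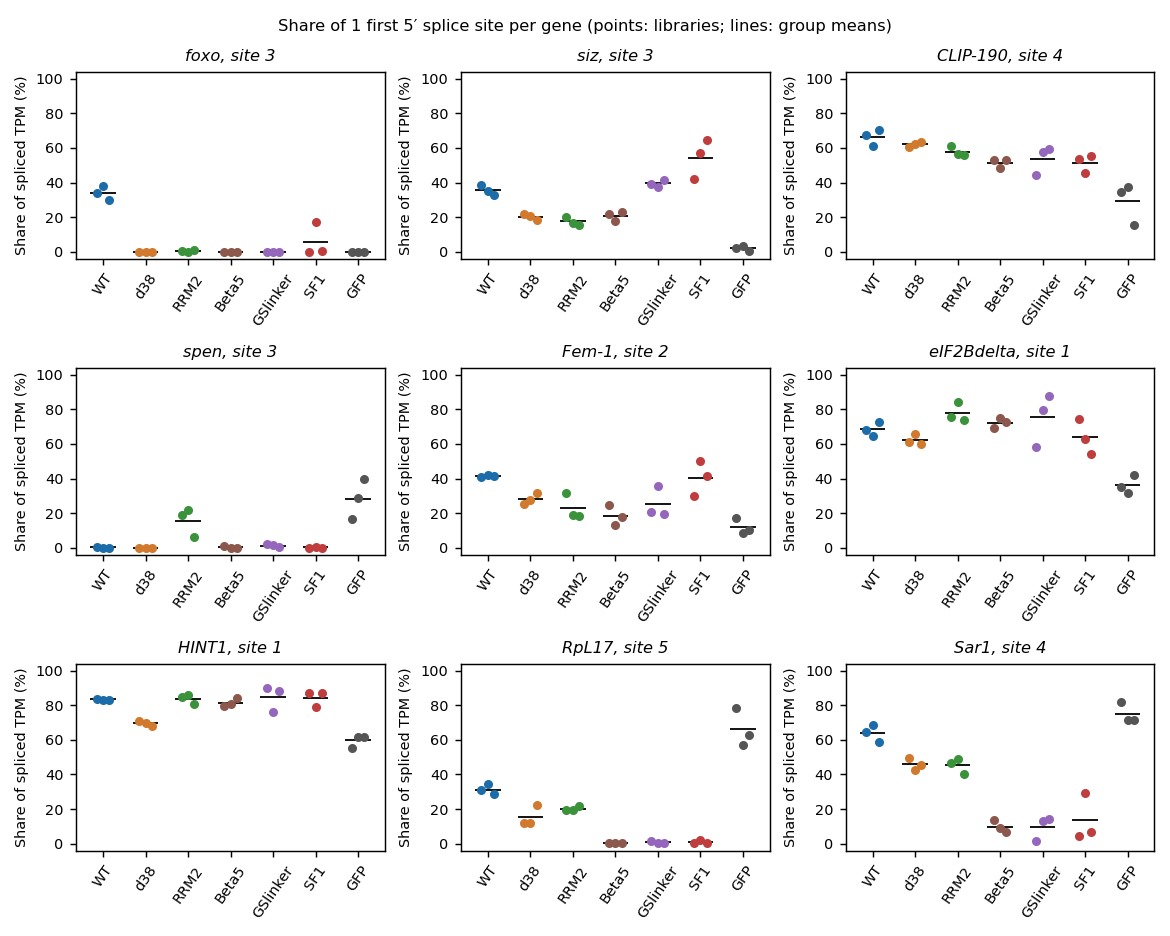
Each panel plots the share of 1 first 5′ splice site, in percent of the gene's spliced TPM, for 9 genes, with a point per library and a line at the mean of each group of 3. Site 3 of foxo is used in the WT libraries and in 1 SF1 library. In Beta5, GSlinker and SF1 the site of RpL17 falls near 0, and that of Sar1 is lower than in WT and GFP.

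In each comparison against GFP, the percentage of genes called was highest where the starts lay farthest apart. Genes whose pair had starts at least 10000 nt apart were called in 60 of 160 cases (37.5%) between WT and GFP. The percentage was 18.8% of 547 genes at 1000 nt or more but under 10000 nt, 13.3% of 427 genes at 200 nt or more but under 1000 nt, and 17.4% of 771 genes below 200 nt. A call is that of the gene over all its tested sites. The direction is that of its pair, which was not tested by itself. Of the 60 genes called, 45 moved toward the downstream start of the pair and 15 toward the upstream start. Over all 160 far pairs the upstream share had a median change of -1.84 points. Without any 1 library of the 2 groups, 45 to 52 far pairs were called, of which 32 to 38 moved downstream. Genes with far starts had more tested sites (median 3, against 2 at each shorter distance) and a median of 2894 estimated counts, and 121 of the 160 changed the start codon. No test of the difference between distances was made.

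The mean upstream share of the far pairs was 55.4% ± 2.18 in WT (SD, n = 3 in each group). The mutants averaged 57.9% ± 1.22 (d38), 57.7% ± 1.14 (RRM2), 61.9% ± 0.261 (Beta5), 61.0% ± 1.20 (GSlinker) and 60.0% ± 0.133 (SF1), and GFP averaged 58.2% ± 0.394. WT replicate 3 stood apart at 52.9%, against 56.8% and 56.5% in the other WT libraries, all 3 being below the lowest GFP library at 57.8%. Without WT replicate 3, 46 far pairs were called, 32 downstream and 14 upstream, and the median change was -0.99 points. Against GFP, 35 far pairs were called in d38 (21.9%), 21 downstream and 14 upstream, and 38 in RRM2 (23.8%), 27 downstream and 11 upstream. In the other mutants more of the called far pairs moved upstream than downstream. They numbered 94 in Beta5 (58.8%), 39 downstream and 55 upstream, 103 in GSlinker (64.4%), 38 downstream and 65 upstream, and 105 in SF1 (65.6%), 46 downstream and 59 upstream. Among all pairs with separate first exons, 134 moved downstream and 94 upstream between WT and GFP, and these counts were 96 and 83 without WT replicate 3.

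**Figure D4:**
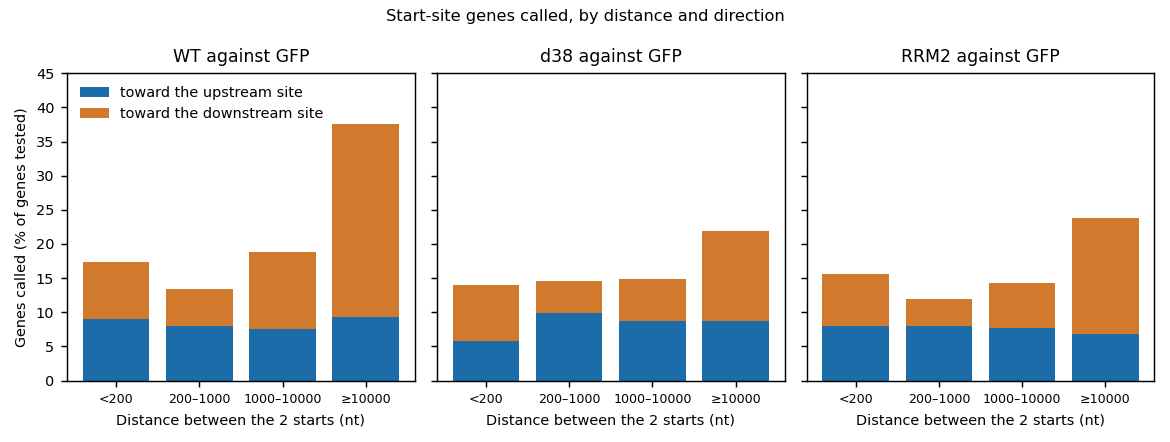
Stacked bars give the percentage of start-site genes called against GFP in WT, d38 and RRM2, split by the distance between the starts of the pair in nt and by direction (blue upstream, orange downstream). In WT the bar for starts at least 10000 nt apart reaches 37.5%, of which the downstream part is the larger.

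**Figure D5:**
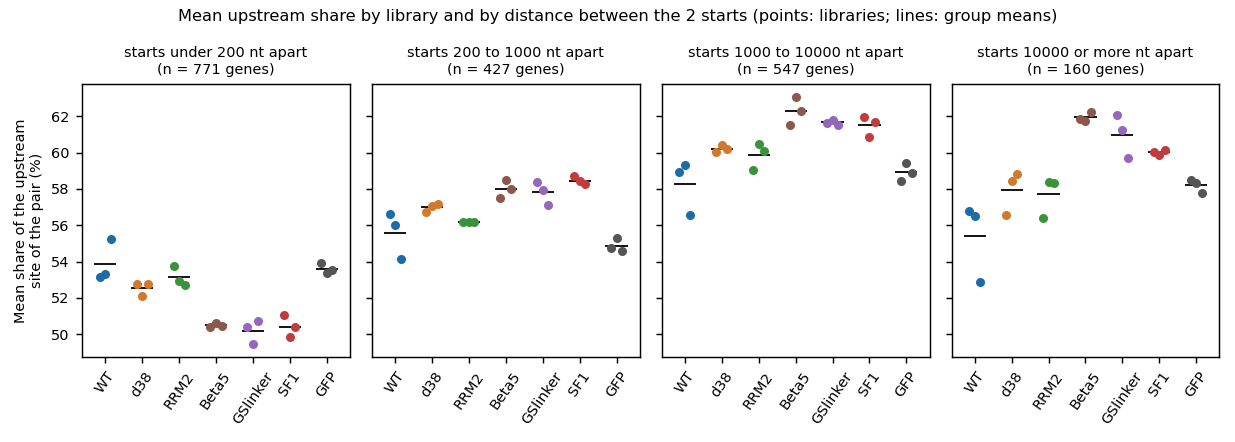
Points are libraries and lines are group means of the upstream site's mean share, in percent of the pair, in 4 panels by distance between the starts; the axis does not begin at 0. At 10000 nt or more the 3 WT libraries lie between 52.9% and 56.8%, below the GFP libraries, and the Beta5, GSlinker and SF1 libraries lie above them.

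The 10 called far pairs with the largest change of upstream share within the pair all moved toward the downstream start in WT. This set was chosen after the counts by distance were seen. Its members were siz, Exn, pyd, ec, mtd, LpR2, Pax, gem, jar and Pkn. In 9 of them, all but jar, the start codon differed between the starts. Only the pair was ranked, so a move to or from another site of a gene is left out. The gene spen is not in the set, although it turned from a far downstream start to an upstream start in WT, as described above. The adjusted p given beside a pair is that of the gene over all its tested sites. Pax encodes paxillin, an adaptor of focal adhesions, and its starts lie 21807 nt apart. Its upstream start held 73.3%, 70.5% and 77.0% of the pair in WT, against 93.3%, 92.6% and 92.9% in GFP (adjusted p = 9.25e-07). The downstream start of Pax gave 18.0 TPM in WT and 5.90 TPM in GFP, and the upstream start 49.6 TPM in WT and 77.4 TPM in GFP. The 3 WT libraries of Pax all stood below the GFP libraries at the upstream start.

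The gene pyd encodes a scaffold of cell junctions, with starts 85607 nt apart, the widest of these pairs. Its upstream start held 28.1%, 24.6% and 18.1% in WT, against 49.4%, 47.0% and 50.0% in GFP (adjusted p = 3.67e-08). Transcripts of the downstream start of pyd stood at 10.4 TPM in WT and 3.72 TPM in GFP, while those of the upstream start stood at 3.28 TPM in WT and 3.53 TPM in GFP. The levels of the upstream transcripts were thus close in the 2 groups. The gene ec, which acts in the developing eye, had 73.1%, 75.8% and 70.4% upstream in WT, against 93.2%, 96.6% and 97.5% in GFP (adjusted p = 1.32e-05). Its groups were well separated, and its downstream transcripts stood at 15.2 TPM in WT and 2.70 TPM in GFP.

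The other far pairs varied more. The kinase gene Pkn averaged 76.6% ± 11.9 upstream in WT and 92.1% ± 0.621 in GFP (SD, n = 3 each), with 62.9% in WT replicate 3 and 83.5% and 83.6% in the other WT libraries (adjusted p = 7.08e-06). The transcription factor gene gem had 85.1%, 86.4% and 65.4% in WT, against 96.1%, 98.9% and 97.0% in GFP (adjusted p = 0.0122). For LpR2, a lipophorin receptor, the upstream share averaged 73.7% ± 4.16 in WT and 94.6% ± 6.56 in GFP (adjusted p = 0.0148), on a mean of 345 estimated counts. Exn, mtd and jar passed narrowly, with adjusted p between 0.041 and 0.0496. In d38 the far starts of Pax, ec and gem stood near GFP, at 91.1%, 93.3% and 97.9% upstream, whereas mtd averaged 32.2% in d38, 32.4% in WT and 53.9% in GFP. For gem this was not particular to d38, since Beta5, GSlinker and SF1 averaged 99.6%, 99.7% and 96.8%, while RRM2 averaged 82.0%. The upstream share of jar averaged 85.3% to 94.8% over the mutants and 88.0% in GFP.

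In d38 and RRM2 other genes ranked first. Between d38 and GFP the genes first in rank were mRpS6 and mRpL23, of the mitochondrial ribosome, RpL17, and Ldh, which encodes lactate dehydrogenase. The shorter first exon of mRpS6 held 5.0%, 10.2% and 0% in d38, against 78.8%, 52.2% and 65.7% in GFP (adjusted p = 0.00045). Ldh used its downstream site 3 for 0.0597%, 5.80% and 6.16% in d38, against 47.5%, 39.1% and 48.0% in GFP (adjusted p = 0.00347, and 0.0504 in the fit of 6 libraries). Both genes were separated widely between the groups. Between RRM2 and GFP the first genes were mRpL23, RpL17, CG11089 and NT5E-2, and site 1 of mRpL23 averaged 12.2% ± 8.70 in RRM2 and 65.5% ± 6.81 in GFP (SD, n = 3 each, adjusted p = 0.00285).

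Against WT, the genes first in rank for d38 were glob1, Nipsnap, foxo and mRpS6, and those for RRM2 were Nipsnap, foxo, nvy and ERp44. ERp44, a chaperone of the secretory pathway, had its site 2 (chrX:16296860-16296885, minus strand) at 13.2% ± 0.988 in d38, 14.8% ± 3.31 in RRM2, 41.8% ± 0.808 in WT and 46.1% ± 5.59 in GFP (SD, n = 3 each). WT and GFP did not differ in ERp44 beyond the threshold (adjusted p = 0.695), and RRM2 differed from WT (adjusted p = 0.0197). That call was not made by edgeR's F test (adjusted p = 0.144) or without any 1 of RRM2 replicates 1 and 3 and WT replicates 1, 2 and 3 (adjusted p between 0.0506 and 0.0836). The corepressor gene nvy used its upstream site 1 for 100% in all 3 RRM2 and all 3 d38 libraries, against 68.1%, 74.2% and 64.3% in WT (adjusted p = 0.00168 for RRM2 and 0.000559 for d38). GFP averaged 72.0% ± 14.5 in nvy, and its second start lies 8953 nt downstream. In Nipsnap, a mitochondrial protein gene, WT and GFP also differed (adjusted p = 0.0025). The longer form of its first exon averaged 93.0% ± 0.227 in d38, 93.5% ± 5.26 in RRM2, 56.7% ± 12.3 in WT and 85.3% ± 8.77 in GFP, with adjusted p of 2.64e-05 for d38 and 0.000237 for RRM2 against WT, the RRM2 call being lost in the fit of 6 libraries (adjusted p = 0.103). The globin gene glob1 used site 1 for 0.0391% ± 0.0677 in d38 and 40.7% ± 11.5 in WT (adjusted p = 0.0072), on 182 to 612 estimated counts per library.

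In Beta5, GSlinker and SF1, Sar1, RpL17, CG9667 and eEF1gamma ranked high in more than 1 comparison. Against GFP the genes first in rank were CG9667, RpL17, Sar1 and CG42518 for Beta5, Sar1, RpL17, eEF1gamma and RpL34b for GSlinker, and RpL17, CG9667, eEF1gamma and Sar1 for SF1. Sar1, the GTPase that begins coat assembly on vesicles leaving the endoplasmic reticulum, was named in all 6 comparisons of these mutants. Its site 4 (chr3R:22357517-22357671, plus strand) held 13.8%, 8.87% and 6.58% in Beta5, 1.80%, 12.8% and 14.0% in GSlinker, 4.42%, 29.2% and 6.91% in SF1, 64.8%, 68.7% and 58.9% in WT, and 81.9%, 71.7% and 71.3% in GFP. No library of the 3 mutants came near WT or GFP. The adjusted p of Sar1 against GFP lay between 1.44e-05 and 2.7e-05, and that against WT between 0.000208 and 0.000586. The call between SF1 and WT was lost in the fit of 6 libraries (adjusted p = 0.0623).

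Among the translation genes named, for eEF1gamma, an elongation factor subunit, site 3 averaged 47.5% ± 1.93 in Beta5, 26.8% ± 6.98 in GSlinker, 29.9% ± 6.10 in SF1, 85.6% ± 2.07 in WT and 91.4% ± 2.16 in GFP (SD, n = 3 each). Its site 1 begins 92 nt upstream and ends a first exon of 29 nt. Site 5 of RpL17 averaged 0.238% in Beta5, 0.662% in GSlinker and 0.894% in SF1, the highest of these libraries standing at 2.0%, against 31.2% in WT and 66.1% in GFP. Site 5 of RpL36 averaged 36.2% ± 10.8 in Beta5, 18.6% ± 4.96 in GSlinker, 20.5% ± 7.41 in SF1, 70.9% ± 1.54 in WT and 78.3% ± 2.22 in GFP. RpL34b, which has a close paralog in the genome, used site 2 for 1.47%, 60.3% and 2.38% in SF1, against 72.4%, 72.8% and 77.6% in GFP, so SF1 replicate 2 stood apart from the other 2. In all 4 of these genes the share of the downstream site was lower in the mutants, and the part of the effective lengths in this result was not tested.

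In the same 3 mutants, and in d38, the counts of calls by direction differed between the kinds of pair. Against GFP, pairs with separate first exons moved upstream in 321 called genes and downstream in 179 in Beta5, 384 and 251 in GSlinker, and 331 and 208 in SF1. Pairs that share a start moved to the upstream 5′ splice site in 74 called genes and to the downstream one in 174 in Beta5, 90 and 197 in GSlinker, and 78 and 185 in SF1. From the common start, the upstream 5′ splice site gives the shorter first exon. These are called genes of 1202 and 620 tested. In d38, separate first exons moved upstream in 109 called genes and downstream in 79, and pairs of shared start in 32 and 56. In RRM2, upstream and downstream counts lay close together, at 92 and 86 for separate first exons and 51 and 49 for pairs of shared start. In WT, separate first exons moved upstream in 94 called genes and downstream in 134, and pairs of shared start in 59 and 55. Without WT replicate 3 these counts were 83 and 96 for separate first exons, and 40 and 52 for pairs of shared start. Over all pairs tested, the median change then went from -0.106 to 0.19 points (separate) and from 0.394 to -0.205 points (shared start). The leading sites favoured longer transcripts in 530 of 776 called genes in Beta5, 631 of 962 in GSlinker and 564 of 835 in SF1. These counts were 169 of 286 in d38, 142 of 287 in RRM2 and 182 of 354 in WT. The libraries of WT, d38, RRM2 and GFP all lay at an SD of 68.5 to 88.7 nt for the length difference described above. The part of the effective lengths in these directions was not tested for any of the groups.

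Fly genes known for alternative promoters were taken as 2 lists. In the ecdysone hierarchy, the cascade of nuclear receptors and other factors set off by the moulting hormone, 13 genes were listed, 8 had alternative first exons at the TPM required and 7 could be tested. Between WT and GFP 3 of the 7 were called, Eip74EF, Eip75B and ftz-f1, beside 18.6% of all start-site genes, with a median largest change of 3.43 points over the 7, against 4.92 over all start-site genes. Eip74EF, an ETS factor, used its far upstream start for 4.82%, 6.59% and 5.09% in WT, against 1.76%, 2.43% and 2.0% in GFP (adjusted p = 0.000845). Eip75B, a nuclear receptor with starts 102882 nt apart, used its upstream site 1 for 9.56%, 8.20% and 10.7% in WT, against 2.16%, 2.85% and 3.69% in GFP (adjusted p = 0.0025). For both genes every WT library stood above every GFP library at the upstream start. The receptor gene EcR was not called in any of the 11 comparisons by limma (adjusted p between 0.0599 and 0.955). The ftz-f1 call (adjusted p = 0.0244) was lost in edgeR's F test (adjusted p = 0.0623), in the fit of 6 libraries (adjusted p = 0.147) and without any 1 of GFP replicates 1 and 2 and WT replicates 1 and 3 (adjusted p between 0.0773 and 0.111). The receptor gene Hr39 was not called (adjusted p = 0.0537), but it was called under 5 alternatives, with adjusted p between 0.00806 and 0.0461.

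In a second list of 13 genes with known alternative promoters, 6 were called between WT and GFP, kay, pnt, lola, Pdp1, foxo and Sxl, beside 18.6% of all start-site genes. The median largest change was 6.83 points over the 13 and 4.92 over all start-site genes. The ETS factor gene pnt, which acts in the EGF receptor pathway, has starts 50929 nt apart. Its downstream site 3 held 30.2%, 30.7% and 32.2% in WT, against 21.1%, 22.4% and 23.4% in GFP (adjusted p = 0.00399). pnt also passed against GFP in each of the 5 mutants, at 28.7% to 40.2%. The BTB factor gene lola averaged 55.3% ± 2.62 at site 3 in WT and 44.7% ± 3.36 in GFP (SD, n = 3 each, adjusted p = 0.00602). Sxl, the switch of sex determination, used its most downstream site 5 for 25.9%, 27.9% and 36.0% in WT, against 4.44%, 16.5% and 14.5% in GFP (adjusted p = 0.038, and 0.105 in the fit of 6 libraries). The calls for kay, pnt, lola and Pdp1 were also lost in that fit, with adjusted p between 0.0566 and 0.237. Calls against GFP among the same 13 genes numbered 2 (d38), 3 (RRM2), 10 (Beta5), 12 (GSlinker) and 9 (SF1), where 15%, 15.1%, 40.7%, 50.5% and 43.8% of all start-site genes were called.

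Changes of total expression were counted in genes with and without a start call, and the difference was not tested. Between WT and GFP, 144 of 354 called start-site genes (40.7%) also differed in total estimated counts, against 595 of 1551 start-site genes not called (38.4%) and 34.2% of all 8750 genes tested by edgeR. The gap was wider between Beta5 and GFP, at 69.9% of genes with a start call and 62.4% of those without, and between d38 and WT, at 24.0% and 18.9%. Between RRM2 and WT the percentages were 8.57% and 8.98%. Genes that had both kinds of choice were also counted between WT and GFP. An internal choice was called in 95 of 183 genes with a start call (51.9%) and in 144 of 571 genes without one (25.2%). The shares of both kinds come from the same transcript estimates, so they are not independent. Of 32 genes for promoter recognition, the machinery and factors that place RNA polymerase II at a start, 2 rose and 4 fell in WT relative to GFP, with backgrounds of 17.1% higher and 17.1% lower over all genes tested. The largest of these was Trl, the GAGA factor, at 43.6 ± 6.05 TPM in WT and 54.6 ± 2.82 TPM in GFP (log2 fold change -0.26, adjusted p = 0.0339). Of 5 genes of the cap-binding complex and the U1 snRNP, which binds 5′ splice sites, 0 passed edgeR's test between WT and GFP, and 0 had an unadjusted p under 0.05; the median log2 fold change was -0.06.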

How the data were processed

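PolyA RNA from 21 libraries was quantified by the authors. STAR and kallisto, and the builds dm6 and BDGP6, are named in the submitters' processing notes without versions or roles, and the transcript release is not given in the sources used here. Per the file headers, the deposited tables list 30594 transcripts per library, not pooled, each with its length and effective length and with a TPM and an estimated count. Here 30242 transcripts (13989 genes) were matched by identifier to the BDGP6 annotation of Ensembl, 352 were not, and 30055 had the same length in both. Positions were taken from the Ensembl annotation and are 1-based. No sequence was used.

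Shares came from the authors' TPM and depend on how reads were divided among transcripts. They were tested with limma 3.58.1 in R 4.3.3 on log2((share + 0.01) / (1 - share + 0.01)), in a single fit to the 21 libraries, which leaves 14 residual degrees of freedom. P-values were combined per gene, or per internal 5′ splice site, by Simes' method and adjusted by Benjamini and Hochberg's over both classes in each comparison. Sites needed a mean share of 2%. Totals per gene were tested with edgeR 4.0.16 (quasi-likelihood, TMM) on the deposited estimated counts summed and rounded, in 8750 genes. Counting error was not separated from the spread between libraries. The limma step was tested on simulated data.

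Named genes are the 10 (WT against GFP) or 4 (other comparisons) called genes of largest change whose groups did not overlap, with a mean of 200 or more estimated counts, plus listed genes. The members, lists, tests and named-gene rule were chosen with earlier results of these data known. Distance classes and the 10 far pairs were chosen here, the far pairs after the counts by distance were seen. Alternatives were another pseudocount, TPM minimum and share filter, shares from estimated counts, edgeR's F test for isoform usage, fits on 6 or 12 libraries, a replicate block, and leaving out each library.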

Additional observations from a re-analysis of the deposited data

How the results depend on the processing

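Counts of calls kept within 1.5 times of those reported under a pseudocount of 0.05, a minimum of 5 TPM, no filter on shares, shares from estimated counts and the fit of 12 libraries. The fit of the 6 libraries of each comparison, which estimates the spread from fewer libraries, moved 16 of 22 counts. Start-site genes then numbered 151 in WT, 171 in d38, 168 in RRM2 and 400 in SF1 against GFP, and, against WT, 67 (d38), 8 (RRM2), 400 (Beta5), 460 (GSlinker) and 88 (SF1). Internal choices numbered 303 in WT, 162 in d38 and 374 in SF1 against GFP, and 128 in d38, 11 in RRM2, 386 in GSlinker and 71 in SF1 against WT. With edgeR's F test, 250 start-site genes were called between d38 and WT and 82 between RRM2 and WT; the cause was not tested. Replicate numbers did not pair the libraries (correlations of same-numbered deviations between -0.128 and 0.0857). With a replicate block, 23 start-site genes were called between RRM2 and WT, and the other 21 counts stayed within 1.5 times.

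Leaving out single libraries gave, against GFP, 250 to 315 start-site genes (WT), 167 to 253 (d38), 170 to 266 (RRM2), 619 to 728 (Beta5), 807 to 907 (GSlinker) and 684 to 852 (SF1). Against WT the ranges were 73 to 115 (d38), 12 to 25 (RRM2), 477 to 590 (Beta5), 595 to 735 (GSlinker) and 343 to 606 (SF1). Internal choices ranged over 175 to 239 in d38 and 206 to 288 in RRM2 against GFP, and over 158 to 186 in d38, 33 to 51 in RRM2 and 286 to 506 in SF1 against WT. Of 948 refits of the named and listed genes, 887 kept direction and side of the threshold, 54 lost the call, 5 gained it and 2 changed sign. The 2 were EcR site 1 without GFP replicate 2 and InR site 2 without WT replicate 3, neither called between WT and GFP; over the libraries left out they ranged from -0.596 to 2.54 and from -11.4 to 1.62 points. The Sxl call was lost without any 1 of GFP replicate 1 and WT replicates 2 and 3 (adjusted p = 0.167, 0.0886 and 0.131), and the kay call without 5 of the 6 libraries in turn (adjusted p between 0.0585 and 0.126). The mRpL23 call between d38 and GFP was lost without any d38 library or GFP replicate 1 (adjusted p between 0.0596 and 0.0785). In the fit of 6 libraries the calls for CG11089 and NT5E-2 between RRM2 and GFP (adjusted p = 0.0689 and 0.0698) and mRpS6 between d38 and WT (adjusted p = 0.086) were lost. Depth limits the shares of genes with few estimated counts, such as AGO3, NT5E-2 and LpR2.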

Other observations

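Of the mitochondrial and cytosolic ribosomal protein genes named, mRpS6 stood at 41.2 TPM for its longer first exon in d38, 27.6 TPM in WT and 13.7 TPM in GFP, and at 2.23 TPM for its shorter first exon in d38, 17.2 TPM in WT and 26.9 TPM in GFP. The shorter form was highest in GFP and lowest in d38. In CG32767, which has 6 tested sites, site 2 held 0% to 1.23% in the GSlinker libraries, against 51.8%, 56.6% and 61.6% in the WT libraries, and 50.8% to 63.7% in the GFP libraries. PIG-V, which encodes a mannosyltransferase of GPI anchor synthesis, was named between GSlinker and WT on 98.0%, 100% and 20.1% in GSlinker, against 7.89%, 7.47% and 12.6% in WT (adjusted p = 0.00854). That call was lost in edgeR's F test (adjusted p = 0.297), in the fit of the 6 libraries of these groups (adjusted p = 0.0918) and without GSlinker replicate 2 (adjusted p = 0.0514). GSlinker replicate 3 lay near WT, the GFP libraries ranged from 1.36% to 46.7%, and the smallest library held 26.7 estimated counts for the gene.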
